A study of Mus musculus with 6 samples.

Results

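Airn, Peg13 and Rmrp are noncoding RNAs, the first a pair of imprinted long transcripts and the last the RNA core of an enzyme. All 3 had lower array signal in RAW264.7 cells carrying an interfering RNA against Tim-3 than in cells carrying a control interfering RNA. They were chosen by this measured difference, so their own values are given as a description and not as a test. RefSeq transcripts matched 1 array target to each gene, read by 3 probes, so the 3 genes were 3 of 44170 targets and 3 of the 1229 gene symbols that could be matched. The RefSeq annotation classed Airn and Peg13 as long noncoding RNAs and Rmrp as RNase MRP RNA. RAW264.7 is a mouse macrophage-like line. In one group of 3 arrays the cells had taken up the pRNAi-U6H1 vector with the Tim-3 siRNA, and in the other group of 3 the same vector with a control siRNA. Tim-3 is an immune receptor encoded by Havcr2. Knockdown clones had been selected for stable expression with the drug G418, and the labels give no number of clones. Each array came from a culture of its own, so errors describe the spread between cultures and not between independently made clones. Each array was a NimbleGen mouse expression array read in the Cy3 channel.

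Imprinted genes are transcribed from the maternal or the paternal copy alone. Airn is made from the paternal copy, starts inside the gene for the insulin-like growth factor 2 receptor, Igf2r, and runs antisense to it. Airn silences Igf2r on the same chromosome, and in the placenta also the transporter genes Slc22a2 and Slc22a3. Peg13 is a paternally expressed transcript that lies within an intron of Trappc9, in the imprinted domain of the potassium channel gene Kcnk9, and is best known from brain. Rmrp is transcribed by RNA polymerase III, and with a set of proteins shared with RNase P it forms RNase MRP, which takes part in cutting the precursor of ribosomal RNA. Mutations of the human gene cause cartilage-hair hypoplasia, a skeletal disorder with immune deficiency.

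The reference promoter of Airn is shown because its start within Igf2r defines the gene, and that of Kcnq1ot1 because it is the other long antisense imprinted RNA with clear signal on these arrays. Both run 5′ to 3′ from RefSeq on GRCm38.p6, from 250 bases before to 50 bases after the annotated start, with every CG dinucleotide, the site of DNA methylation, in capitals. Airn lies at chr17:12741061-12741360 on the plus strand and Kcnq1ot1 at chr7:143296498-143296797 on the minus strand.
Airn: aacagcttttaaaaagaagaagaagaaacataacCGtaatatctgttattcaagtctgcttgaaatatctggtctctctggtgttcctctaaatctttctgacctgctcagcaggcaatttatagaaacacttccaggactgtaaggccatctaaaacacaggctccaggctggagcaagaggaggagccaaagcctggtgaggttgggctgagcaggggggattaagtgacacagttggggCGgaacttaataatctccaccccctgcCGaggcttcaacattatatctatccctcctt
Kcnq1ot1: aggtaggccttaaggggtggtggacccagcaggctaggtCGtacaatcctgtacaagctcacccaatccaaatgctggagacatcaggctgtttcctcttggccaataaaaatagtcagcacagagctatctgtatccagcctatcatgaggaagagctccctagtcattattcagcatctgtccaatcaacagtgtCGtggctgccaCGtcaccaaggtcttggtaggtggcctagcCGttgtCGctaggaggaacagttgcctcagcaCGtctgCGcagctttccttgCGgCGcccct

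The Airn window held 3 CG dinucleotides and that of Kcnq1ot1 held 9, against a median of 7 over 32851 mouse promoter windows of the same length. Fewer CG dinucleotides than in the Airn window were found in 23.3% of them. Searched on both strands, the Airn window had 1 match to the TATA box letters (TATAAA), which 13.6% of windows hold. It also had 1 match to the GC box letters (GGGCGG), which 35.7% hold. CCAAT, present in 37.4% of windows, had no match there and 3 matches in the Kcnq1ot1 window. These matches are a description of the letters and not of bound factors, and methylation was not measured here. Bases beyond the windows were not counted, so the counts do not describe the CG content of the wider Airn region.

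Array medians lay between 201.5 and 218.3, and the row of random-sequence probes, the background level, read 23.1 to 24.5. Over targets, which do not replicate each other, log2 intensities of 2 arrays correlated at a Pearson's r of 0.982 to 0.990, except for pairs with control replicate 3, where r was 0.965 to 0.972. The 3 measured hepatocyte markers were low on that array alone. Hpn, for example, read 38.3 there and 1971 to 2946 on the other 5 arrays. In a macrophage-like line the unexpected part is the signal on those 5 arrays, and its source was not tested. Of 16 macrophage markers listed, Ptprc, the leukocyte antigen CD45, was the 1 measured under a symbol, at intensities of 125 to 195. Of the listed hepatocyte markers 3 of 14 and of the erythroid markers 2 of 5 were measured under a symbol, and 0 of the fibroblast, lymphocyte and neuron markers. The erythroid markers Hba-a2 and Alas2 read 3162 to 5021 and 210.5 to 467.6 over all arrays. Havcr2 was not analysed here, so the knockdown itself was not checked. In RNA from a whole culture, fewer cells making a transcript and less of it per cell cannot be told apart.

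Airn, the silencer of Igf2r, had intensities of 1276, 1206 and 1412 in control replicates 1, 2 and 3 and of 838, 728 and 924 in knockdown replicates 1, 2 and 3. Every control array lay above every knockdown array. Its mean log2 intensity was 10.34 ± 0.12 (SD, n = 3) in control and 9.69 ± 0.17 (SD, n = 3) in knockdown cells. The difference was -0.65 (SE 0.14, 95% interval -0.98 to -0.32), which put the knockdown at 63.8% of the control.

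Peg13, the RNA of the Kcnk9 domain, had intensities of 354, 361 and 393 in the control arrays and of 249.1, 240.4 and 240.9 in the knockdown arrays, each in the order of replicates 1 to 3. The knockdown arrays were closer to each other than in the other genes, with a range of 0.05 on the log2 scale against 0.34 for Airn and 0.38 for Rmrp. Mean log2 intensities were 8.53 ± 0.08 (SD, n = 3) in control and 7.93 ± 0.03 (SD, n = 3) in knockdown cells, a difference of -0.60 (SE 0.11, 95% interval -0.86 to -0.34) that put the knockdown at 66.0% of the control. This was the dimmest of the 3 targets, and its lowest array still read 9.80 times the random-sequence row.

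Rmrp, the RNA of RNase MRP, had intensities of 2380, 2346 and 2030 in the control arrays and of 1353, 1267 and 1644 in the knockdown arrays, again in the order of replicates 1 to 3. Its mean log2 intensity was 11.13 ± 0.13 (SD, n = 3) in control and 10.46 ± 0.20 (SD, n = 3) in knockdown cells. The difference was -0.67 (SE 0.15, 95% interval -1.02 to -0.32), and the knockdown stood at 62.9% of the control. Control replicate 3, the highest control array for Airn and for Peg13, was the lowest for Rmrp.

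**Figure D1:**
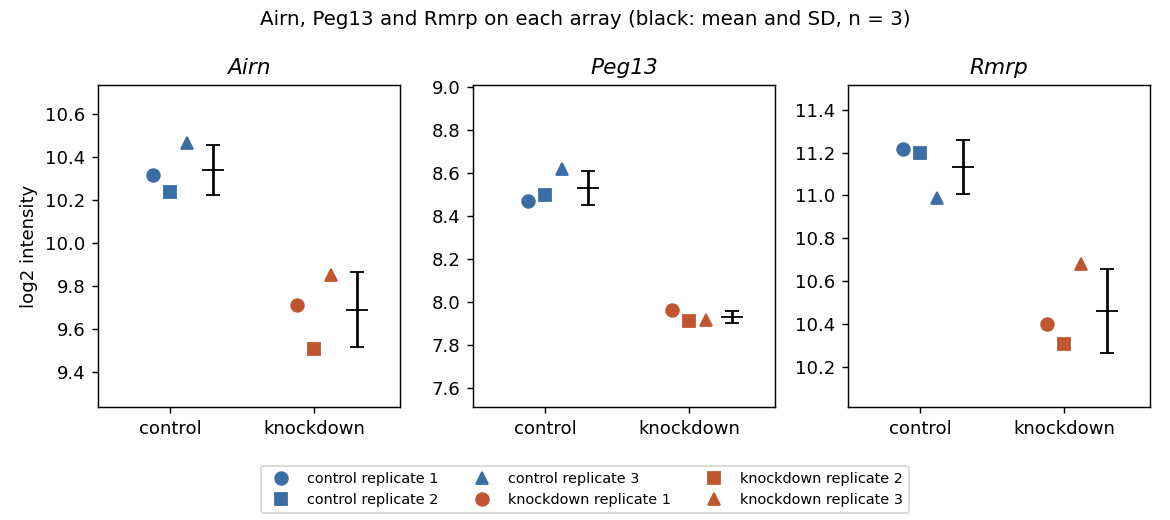
Log2 intensity of Airn, Peg13 and Rmrp (panels, each spanning the same 1.5-unit height) on the 3 control (blue) and 3 knockdown (orange) arrays, with the mean and SD of each group in black. In each panel the lowest control array lies above the highest knockdown array, by 0.38 for Airn, 0.51 for Peg13 and 0.31 for Rmrp.

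The gaps between the groups in the plot of intensities by array were larger than the range within either group for Peg13 and for Airn. For Rmrp the gap of 0.31 lay between the control range of 0.23 and the knockdown range of 0.38. Knockdown arrays all below control arrays were common on this platform, at 13% of all targets (5739 of 44170), and a difference at least as far below 0 as that of Peg13 was seen for 2356 targets (5.33%). Fitted over all 44170 targets with limma, 0 of the 3 genes were called at an adjusted p under 0.05, with adjusted p of 0.097 for Airn, 0.065 for Peg13 and 0.10 for Rmrp, where 0.709% of targets were called lower and 0.505% higher. In the authors' series table, which keeps 27526 targets (those reading 100 or more on 3 or more arrays), the adjusted p were 0.030, 0.015 and 0.034, all 3 were called, and 3.88% of targets were called lower. These p-values belong to the values on which the genes were chosen. Differences of about this size thus went uncalled over all targets, so a count of 0 called there does not show that none differed. Over 17 settings they ran from 0.0054 to 0.24 for Airn, 0.0072 to 0.22 for Peg13 and 0.0039 to 0.26 for Rmrp, and passed in 4, 5 and 4 of them. All 3 read 100 or more on all 6 arrays and so are in that table. None of the 3 reached the 2-fold screen of the series' design, which 1.24% of all targets passed as lower. The fold differences were 1.57 for Airn, 1.52 for Peg13 and 1.59 for Rmrp.

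**Figure D2:**
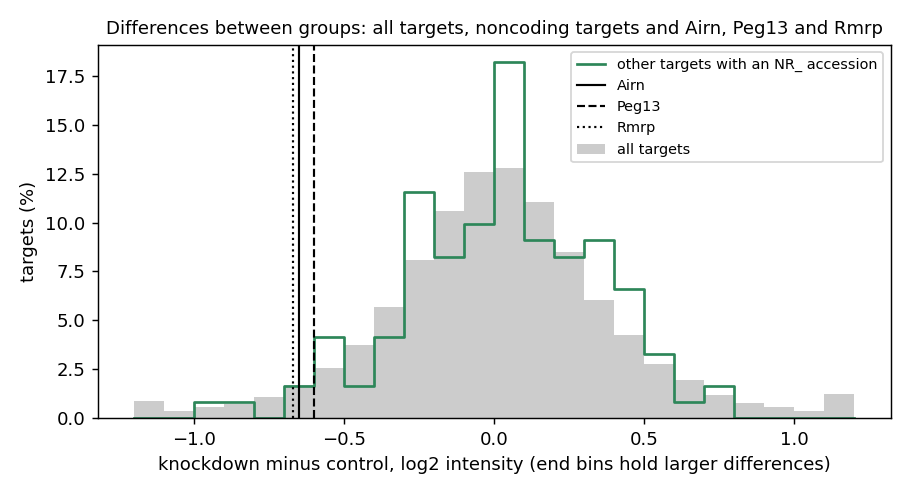
Share of targets (percent) by knockdown minus control difference in log2 intensity, for all 44170 targets (grey bars) and the other 121 targets with an RNA accession of the noncoding class (green line), with Airn, Peg13 and Rmrp as vertical lines and larger differences held in the end bins. The 3 lines lie between -0.67 and -0.60, on the lower flank of both distributions.

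The 3 genes were set against the other noncoding RNAs on the arrays, taken as all targets whose accession carries the RefSeq prefix for noncoding RNA (NR_). There were 121 such targets apart from Airn, Peg13 and Rmrp. RefSeq now annotates 54 of them as transcribed pseudogenes, 25 as long noncoding RNAs, 12 as snoRNAs and 2 as protein-coding genes, while 20 matched no symbol. Their median difference was 0.04 on the log2 scale, against 0.01 over all targets. With limma over all targets 0 were called higher and 0 lower, while 8 were higher and 5 lower at an unadjusted p under 0.05. Those 13 make up 10.7% of the 121, against 17% of all targets. All knockdown arrays lay below all control arrays for 11 of the 121 (9.09%, against 13% of all targets) and above them for 13 (10.7%, against 12.1%). Among the 51 of these targets in the authors' series table, where Airn, Peg13 and Rmrp also are, all knockdown arrays lay below for 9 (17.6%) and above for 7. In that table the shares over all targets were 17.1% below and 14.8% above. An unadjusted p under 0.05 was reached by 8 of the 51 (15.7%), against 19.8% of the table's targets in the same fit. None of the 121 was 2-fold lower or higher, where 1.6% of all targets were at least 2-fold higher.

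A difference at or below that of Peg13 was seen for 4 of these 121 targets, against 2356 of all 44170 (5.33%). The 4 are named here after their values were seen. Snord61, a small nucleolar RNA, differed by -0.82 (SE 0.15), Vax2os by -0.92, the pseudogene Speer6-ps1 by -0.67 and a target with no symbol by -0.69. All 4 read under 100 on all 6 arrays. Of the noncoding targets in the authors' series table, Tug1 came nearest, at -0.598 against -0.600 for Peg13. Within the series table limma called 2 of 51 such targets. Npm3-ps1, a pseudogene of the histone chaperone Npm3, rose by 0.69 (adjusted p = 0.012), and Snhg3, a host transcript of small nucleolar RNAs, fell by 0.51 on the log2 scale (adjusted p = 0.039). Of all targets in that table, 2.68% were called higher. Over all targets the adjusted p were 0.053 and 0.12, and over 17 settings they ran from 0.00065 to 0.20 and from 0.011 to 0.28.

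The other imprinted genes listed were thinly covered, with 3 of 13 noncoding and 2 of 60 coding genes measured under a symbol. With limma 0 of these 5 were called, where 0.709% of all targets were called lower and 0.505% higher. An unadjusted p under 0.05 was reached by 0 of the 5, against 17% of all targets. Among so few genes, counts of 0 do not set them apart from all targets. Kcnq1ot1, which silences the Kcnq1 domain as Airn does the Igf2r domain, had intensities of 1346, 1356 and 1193 in control and 1454, 1507 and 1363 in knockdown replicates 1 to 3. Its difference was 0.15 (95% interval -0.13 to 0.43, adjusted p = 0.54), and every knockdown array lay slightly above every control array. The intervals of Airn and Kcnq1ot1 did not overlap, and the difference between these genes was not tested. Airn was chosen for its low value in this contrast, so the lack of overlap is no support for a difference between them.

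Nctc1, a noncoding RNA of the Igf2 and H19 region, and Gnasas1, the antisense RNA of the Gnas locus, read under 100 on all arrays. They differed by 0.41 (95% interval -0.21 to 1.03) and 0.07 (95% interval -0.48 to 0.62). Gnas, the gene of the stimulatory G protein alpha subunit, differed by 0.00 (95% interval -0.35 to 0.36), at a log2 intensity of 14.59 in both groups. Peg10, a retrotransposon-derived gene, differed by -0.72 with an interval from -2.08 to 0.64. Igf2os and Dio3os, antisense RNAs of the imprinted Igf2 and Dio3 loci that were added after their values were seen, differed by 0.45 (adjusted p = 0.28) and 0.39 (adjusted p = 0.67). The differences of the listed noncoding RNAs Kcnq1ot1, Nctc1 and Gnasas1 lay between 0.07 and 0.41, but among them Kcnq1ot1 alone read above 100. Igf2os and Dio3os also read under 100 on all arrays and, picked by their values, add no support.

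Of the 6 other listed genes of the Igf2r domain, among them Igf2r, Slc22a2 and Slc22a3, 0 were measured under a symbol, and the same held for the 6 other listed genes of the Peg13 and Kcnk9 domain. Whether the neighbours that Airn and Peg13 are known for moved with them is therefore not shown here. The labels do not say whether the labelled product kept the strand of the RNA, and the positions of the probes were not analysed here. Signal of Airn and of Igf2r transcripts, or of Peg13 and of unspliced Trappc9 transcripts, thus cannot be told apart where they overlap.

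For Rmrp the closest relative on the arrays was Rpph1, the RNA of RNase P, which shares most of its protein subunits. Rpph1 read 426, 302 and 394 in control and 348, 314 and 398 in knockdown replicates 1 to 3, so its groups overlapped. It differed by -0.07 (95% interval -0.50 to 0.35, limma adjusted p = 0.86), an interval that overlaps that of Rmrp, and the difference between the RNAs was not tested. Of 20 other structural RNAs listed, 3 were measured and 0 were called, where 0.709% of all targets were called lower and 0.505% higher. Rnu11, of the minor spliceosome, differed by -0.25 (95% interval -0.60 to 0.11), and Terc, the telomerase RNA, by 0.31 (95% interval -0.23 to 0.84) with all arrays under 100. None of 11 listed protein genes of RNase MRP and RNase P was measured under a symbol. Rmrp is not polyadenylated, and the priming used for labelling is not stated in the labels.

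Of 24 protein-coding genes that start within 250 kb of Rmrp in RefSeq, 4 were measured under a symbol, against 0 of 11 near Airn and 0 of 2 near Peg13. Most targets matched no symbol, so the other neighbours may have targets that are not named here. Cd72, an inhibitory receptor of B cells and myeloid cells, differed by -0.02 (95% interval -0.30 to 0.25) and Msmp by -0.02 (95% interval -0.31 to 0.26). Tmem8b differed by -0.58 (95% interval -1.39 to 0.24) and Hrct1 by 0.52 (95% interval 0.09 to 0.94), with limma adjusted p of 0.44 and 0.22. The 4 values lay on both sides of 0. Of the 4, 0 were called, where 0.709% of all targets were called lower and 0.505% higher. The neighbours were looked up after the values of Rmrp were known.

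**Figure D3:**
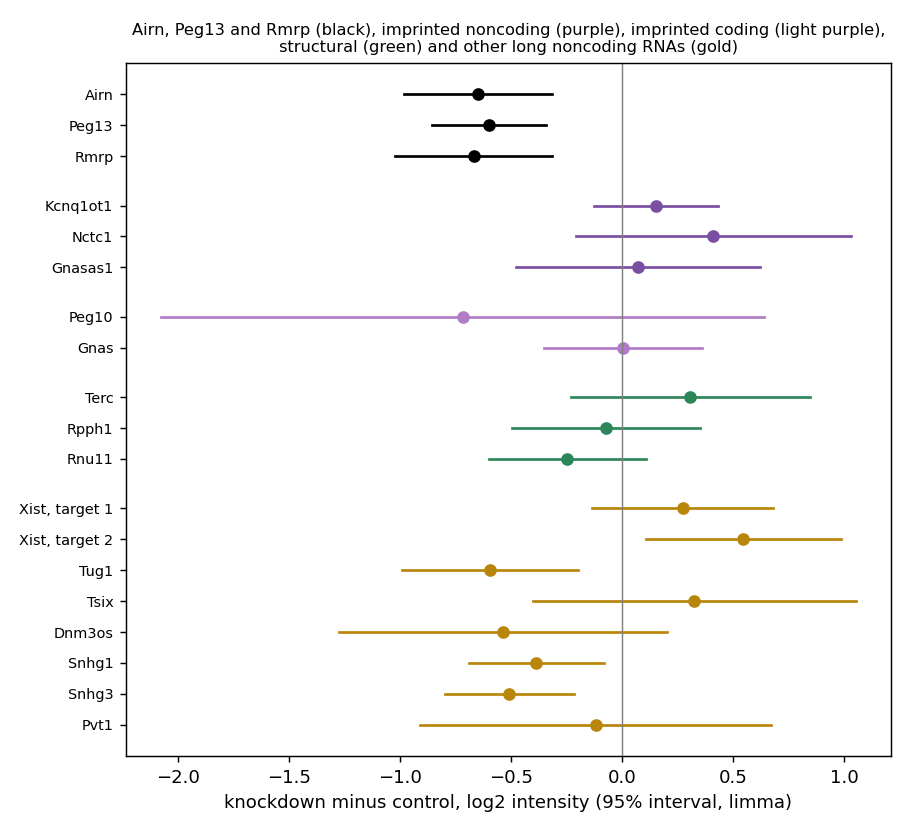
Knockdown minus control difference in log2 intensity with its 95% interval from limma, for Airn, Peg13 and Rmrp (black) and every measured gene of the lists of imprinted noncoding (purple), imprinted coding (light purple), structural (green) and other long noncoding RNAs (gold). The intervals of Airn, Peg13 and Rmrp, which were chosen for being lower, end at -0.32, -0.34 and -0.32. The 3 imprinted noncoding RNAs have values of 0.07 to 0.41. Among them the interval of Gnasas1, from -0.48 to 0.62, overlaps those of Airn, Peg13 and Rmrp.

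Other long noncoding RNAs gave values on both sides of 0, as the plot of listed genes shows. Of 46 genes listed 8 were measured, by 9 targets, among them Kcnq1ot1, which is also counted above with the imprinted genes. With limma 0 of these targets were called over all targets, where 0.709% of targets were called lower and 0.505% higher. Of the 9, 4 had an unadjusted p under 0.05, against 17% of all targets and 19.8% of those in the series table. Snhg3 read 1851, 1973 and 1919 in control and 1292, 1505 and 1252 in knockdown replicates 1 to 3, without overlap, a difference of -0.51 (95% interval -0.80 to -0.22, adjusted p = 0.12). Snhg1, also a host of small nucleolar RNAs, differed by -0.39 (95% interval -0.69 to -0.08, adjusted p = 0.21). Tug1 differed by -0.60 (95% interval -0.99 to -0.20, adjusted p = 0.16), from intensities of 245, 188 and 257 to 163, 135 and 156. Xist, the RNA of X inactivation, had 2 targets that differed by 0.54 (adjusted p = 0.22) and 0.27 (adjusted p = 0.46). Snhg1, Snhg3 and Tug1 had all knockdown arrays below all control arrays, as 13% of all targets did. All knockdown arrays lay above all control arrays, as for 12.1% of all targets, for Kcnq1ot1 and for 1 of the 2 Xist targets, at 2671, 2783 and 2452 in knockdown against 1450, 1803 and 2246 in control replicates 1 to 3. Snora64 and Snora68, small nucleolar RNAs picked after their values were seen, differed by -0.33 and 0.37 (adjusted p of 0.21 for both).

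The named genes closest to each RNA over the 6 arrays were found by the root mean square difference of log2 values, each centred on its own mean, among 553 named targets at or above the median level of all targets. Closest to Airn were Lrrfip1, at 0.088, the zinc finger gene Zfp267, at 0.089, and Arl5c, at 0.11. Closest to Peg13 were Psd3, an exchange factor for Arf6, at 0.054, and Lrrfip1 with 2 of its targets, at 0.058 and 0.066. Closest to Rmrp were Ccdc82, at 0.088, Arl5c, at 0.12, and the ferrireductase Steap3, at 0.14. Among themselves, Airn and Peg13 stood 0.11 apart, Airn and Rmrp 0.14, and Peg13 and Rmrp 0.17.

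**Figure D4:**
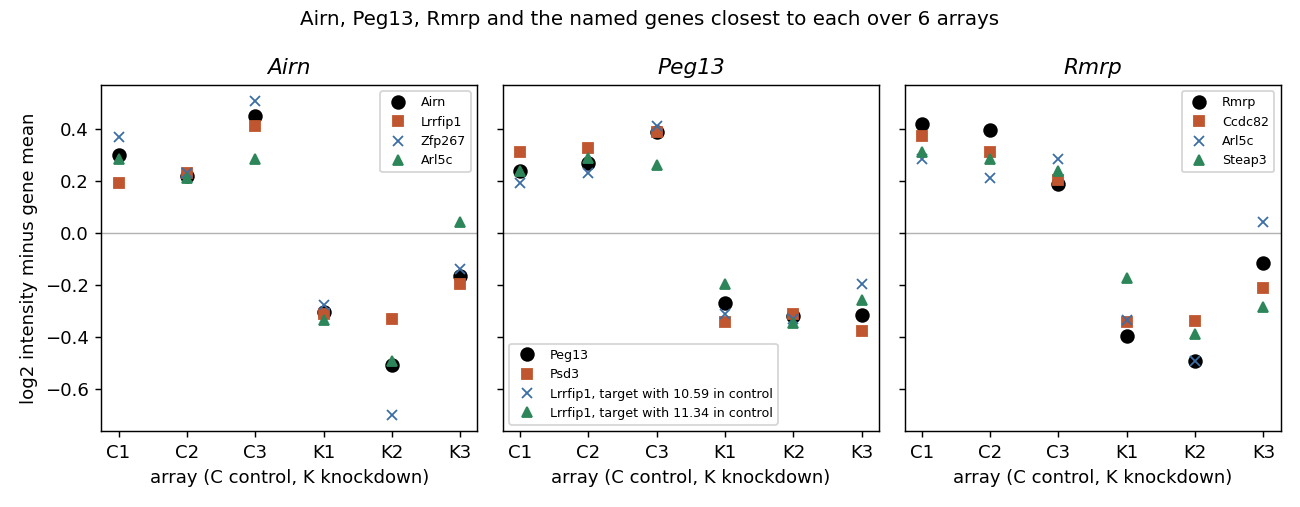
Log2 intensity minus the gene's mean over the 6 arrays for Airn, Peg13 and Rmrp (black) and the 3 named targets closest to each (coloured), with control replicates (C1 to C3) on the left and knockdown replicates (K1 to K3) on the right of each panel. Among the black points, C3 lies at the top of the controls for Airn and Peg13 and at the bottom for Rmrp.

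Lrrfip1 was among the closest to both Airn and Peg13, and Arl5c to both Airn and Rmrp, as the plot of centred profiles shows. These genes were found by likeness to profiles that had been chosen for being lower in the knockdown, so their own differences, -0.74 to -0.52, add no support. The likeness rests on 6 arrays and says nothing of shared control.

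Leaving out control replicate 3, the array with the lowest correlations, gave differences of -0.59 for Airn, -0.56 for Peg13 and -0.74 for Rmrp. The arrays that remain are those with the hepatocyte-marker signal. With no overlap between the groups, leaving out an array could not turn the sign of these differences.

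**Figure D5:**
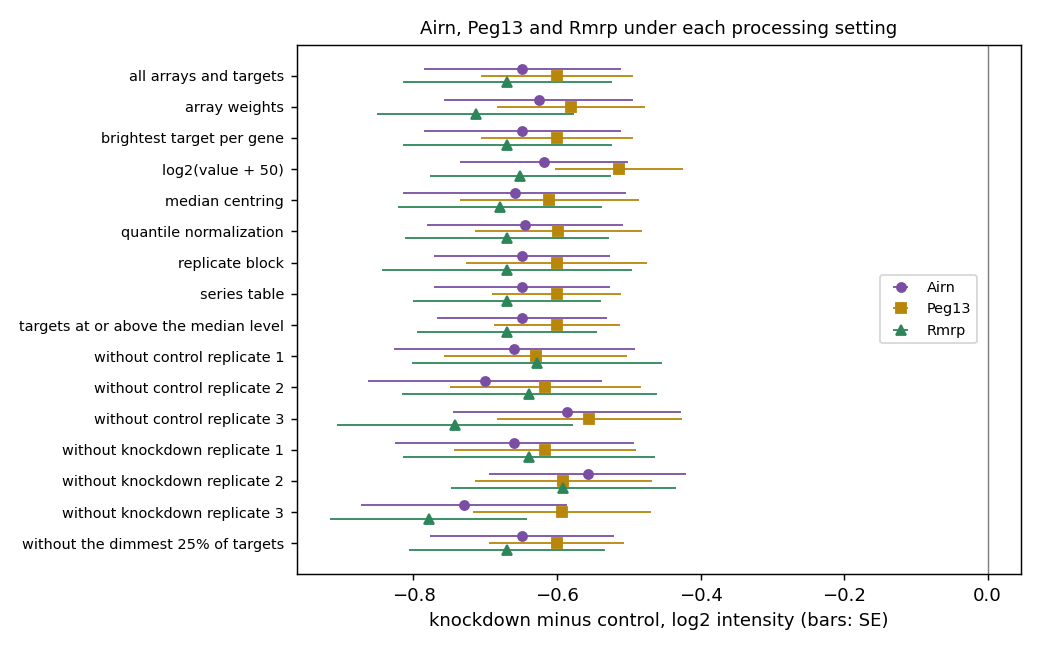
Knockdown minus control difference in log2 intensity of Airn, Peg13 and Rmrp with its SE (bars) under each processing setting, 1 setting per row. All values lie between -0.78 and -0.51, to the left of 0.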

How the data were processed

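RNA levels on 6 arrays were analysed, 3 per group, with groups and replicate numbers from the labels. The authors deposited linear intensities per target. The submitters' processing notes name RMA as the tool, without version or settings, and no source used here gives the build of the probe design. Where RMA normalizes by quantiles, a shift shared by all genes is removed. The series table holds the same intensities for 27526 targets. Accessions were matched without versions to RefSeq (GRCm38.p6, names only), and 1267 of 44170 targets matched a symbol. Intensities were converted to log2 here and fitted with limma 3.58.1 in R 4.3.3 (knockdown minus control, no block, all targets, two-sided, Benjamini-Hochberg adjustment). Intervals are limma's 95% intervals. Figures used matplotlib 3.10.9. The fit was tested on simulated data.

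Airn, Peg13 and Rmrp, the gene lists and the tests were chosen with earlier results of these data known. Named genes were every measured gene of the lists for the imprinted domains, structural RNAs and RNase MRP, up to 4 of lowest p in the imprinted and long noncoding lists, and the 3 closest profiles per RNA; exceptions are marked. The number of arrays limits the precision. Alternatives covered the replicate block, the series table, normalization, filters on dim targets, an offset, variance models, array weights, 1 target per gene, a stricter threshold and leaving out each array.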

Additional observations from a re-analysis of the deposited data

How the results depend on the processing

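Over 15 settings the differences ran from -0.73 to -0.56 for Airn, -0.63 to -0.51 for Peg13 and -0.78 to -0.59 for Rmrp. They do not show stability, since the genes were chosen on these values, groups that do not overlap keep their sign when an array is left out, and the block, the series table, the choice of target and the filters leave the difference as it is by construction. Among these, only Peg13 with log2(value + 50) moved by more than 1 SD, to -0.51, where the offset shrinks dim targets. Leaving out one array gave -0.73 to -0.56 for Airn, -0.63 to -0.56 for Peg13 and -0.78 to -0.59 for Rmrp. Of the other noncoding targets, 0 called higher became 1 with array weights, log2(value + 50), the series table and each filter on dim targets, and 2 with trend and robust fitting. The 0 called lower became 1 with log2(value + 50), the series table and the targets at or above the median level, and 2 with trend and robust fitting. Those at least 2-fold higher numbered 0 to 1 and lower 0 to 2 without one array. The cause was not tested. With the replicate number as a block, the differences were the same (-0.65, -0.60 and -0.67) and limma called 0 targets in either direction over the array (6542 at an unadjusted p under 0.05), and 0 of the noncoding ones (15 unadjusted). Deviations of same-numbered arrays correlated at -0.03, -0.01 and 0.00, so the numbers were not taken as pairs.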
